A study of Mus musculus with 18 samples.

Results

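The Schlafen genes Slfn1, Slfn2, Slfn4, Slfn5, Slfn8 and Slfn9 were followed over 9 sorted immune cell populations. Members were the probe sets annotated with only 1 of these symbols, which gave 1 probe set for each of the 6 genes, among 19752 genes measured with 21425 such probe sets. The family was chosen by the Slfn1 level, which stood out as low in NK cells. Levels of Slfn1 in any population, and levels of all 6 genes in NK, are therefore given as a description with no test. Every array came from male B6 mice (C57BL/6) that were 6 weeks old and had received 10000 U of interferon gamma (IFNg) subcutaneously, with the 2 h point stated in each title. Each population had 2 Affymetrix Mouse Gene 1.0 ST arrays, 18 in all. Splenic populations were dendritic cells (DC; CD11c+ MHCII+ Flt3+), granulocytes (GN; Ly6G+), NK cells (NK; NK1.1+ TCRB-), NK1.1+ T cells (NKT; NK1.1+ TCRB+), CD4 T cells (T4; CD4+ TCRB+), CD8 T cells (T8; CD8+ TCRB+), gamma delta T cells (Tgd; TCRgd+ TCRB-) and regulatory T cells (Treg; CD4+ TCRB+ CD25+). Macrophages (MF; F4/80+ ICAM2+) came from the peritoneal cavity, so cell type and tissue cannot be told apart for them. The T4 gate, as labelled, did not exclude CD25+ cells. Untreated mice were not analysed here, so the values are levels after IFNg and not responses to it.

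Schlafen genes lie in a cluster on mouse chromosome 11 and are known as interferon-inducible genes of lymphoid and myeloid cells. Their proteins share a Schlafen core domain and fall into short forms (Slfn1 and Slfn2), an intermediate form (Slfn4) and long forms that add a helicase-like part (Slfn5, Slfn8 and Slfn9). Slfn1 was first described in thymocyte development, Slfn2 is needed for T cell quiescence, and Slfn4 is known from myeloid cells. Long Schlafen proteins are linked to transfer RNA cleavage and to restriction of viruses. Interferons act on target genes through DNA elements such as the interferon-stimulated response element (ISRE).

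Promoter windows of the 6 genes, from RefSeq on GRCm38.p6, held 300 bases each, 250 before and 50 from the annotated start. All 6 members matched an entry. The windows are shown because 1 motif was found in the long forms and another in the shorter forms. Slfn5, Slfn8 and Slfn9 held an ISRE-like match (GAAA, any 2 bases, then GAAA, on either strand), which was present in 3.44% of the 32851 windows of that length. Capitals in these windows mark it, and Slfn8 and Slfn9 carried it in the same letters on the opposite strand, at -48 to -39 and -45 to -36 from the start.
Slfn5: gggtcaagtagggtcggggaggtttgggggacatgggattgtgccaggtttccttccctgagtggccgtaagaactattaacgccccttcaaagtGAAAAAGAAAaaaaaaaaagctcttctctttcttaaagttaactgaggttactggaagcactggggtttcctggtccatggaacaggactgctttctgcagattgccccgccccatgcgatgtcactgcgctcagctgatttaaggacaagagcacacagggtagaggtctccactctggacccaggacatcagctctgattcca
Slfn8: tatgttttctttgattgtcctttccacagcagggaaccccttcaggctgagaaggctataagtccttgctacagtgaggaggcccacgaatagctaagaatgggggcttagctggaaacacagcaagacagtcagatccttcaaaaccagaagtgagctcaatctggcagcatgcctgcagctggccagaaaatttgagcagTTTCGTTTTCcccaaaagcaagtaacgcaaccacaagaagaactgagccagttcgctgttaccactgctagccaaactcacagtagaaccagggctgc
Slfn9: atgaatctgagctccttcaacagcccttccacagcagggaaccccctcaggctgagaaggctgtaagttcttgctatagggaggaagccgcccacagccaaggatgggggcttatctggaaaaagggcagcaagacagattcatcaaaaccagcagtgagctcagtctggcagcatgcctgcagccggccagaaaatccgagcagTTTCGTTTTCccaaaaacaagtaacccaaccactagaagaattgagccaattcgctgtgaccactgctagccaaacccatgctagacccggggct
Slfn5 lies on the plus strand at chr11:82951852-82952151, and Slfn8 and Slfn9 on the minus strand at chr11:83020761-83021060 and chr11:82991781-82992080. Aligned end to end, the Slfn8 and Slfn9 windows were identical at 80.8% of 312 columns, against 46.5% to 53.0% for the other 14 pairs of members. A second Slfn8 start in the table held the same match.

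Slfn1, Slfn2 and Slfn4 had no exact ISRE-like match in their windows, which says nothing of near matches or of elements elsewhere. They held an ETS-like match instead (ACTTCCTG, either strand, in 3.33% of all windows), at -74 to -67 in Slfn1, -55 to -48 in Slfn2 and -73 to -66 in Slfn4. This motif was chosen after the sequences were seen, so its presence in these genes is a description. In Slfn1 and Slfn4 it was part of a shared run of 15 bases, ACTTCCTGGAGTGAC. Capitals mark the ETS-like letters in these 2 windows, which stand for the shorter forms.
Slfn1: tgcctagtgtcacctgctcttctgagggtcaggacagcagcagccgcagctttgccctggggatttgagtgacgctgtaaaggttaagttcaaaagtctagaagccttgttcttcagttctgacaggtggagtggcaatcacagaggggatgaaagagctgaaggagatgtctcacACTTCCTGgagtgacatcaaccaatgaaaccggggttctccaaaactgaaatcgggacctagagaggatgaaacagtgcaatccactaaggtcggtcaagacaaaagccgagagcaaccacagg
Slfn4: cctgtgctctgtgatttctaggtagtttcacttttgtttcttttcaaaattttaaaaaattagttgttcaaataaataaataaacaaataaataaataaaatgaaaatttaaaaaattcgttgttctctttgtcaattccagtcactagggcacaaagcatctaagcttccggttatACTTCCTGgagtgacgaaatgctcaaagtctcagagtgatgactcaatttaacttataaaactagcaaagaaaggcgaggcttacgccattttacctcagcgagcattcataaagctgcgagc
Both lie on the plus strand, at chr11:83116570-83116869 and chr11:83174936-83175235. A match is a run of letters and not a measured binding site.

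**Figure D1:**
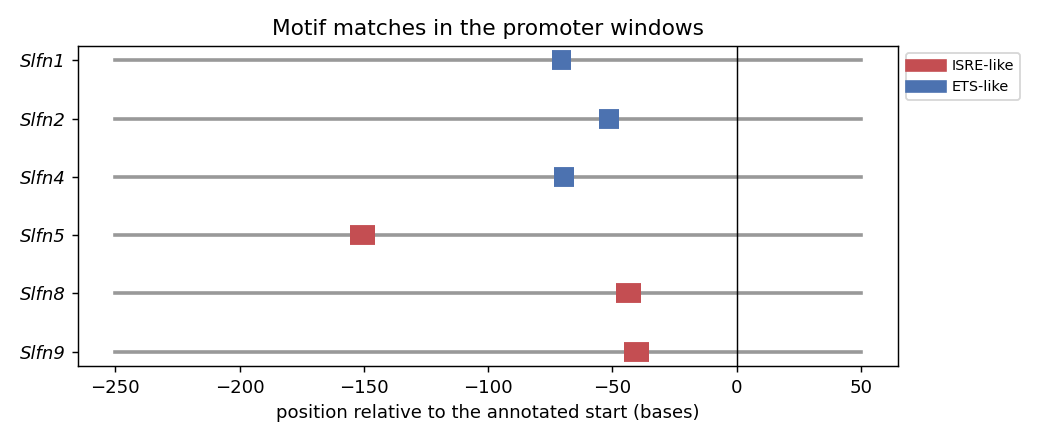
Motif matches in the promoter windows of the 6 genes, drawn by distance in bases from the annotated start. Slfn1, Slfn2 and Slfn4 hold an ETS-like match between -74 and -48, and Slfn5, Slfn8 and Slfn9 an ISRE-like match between -155 and -36.

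The sorted populations carried the markers of their gates, and 1 DC array stood apart. Of 43 entries on the marker lists of the 9 populations, 38 had their highest mean in the population they mark. Examples were Flt3 in DC, the NK receptor gene Ncr1 in NK and Foxp3 in Treg. The 5 exceptions were Cd3e on 3 T cell lists, Klrb1c for NKT and Zbtb7b for T4. Cd3e and Klrb1c each stood on more than 1 list and could be highest in only 1 population, so exceptions for them were fixed in advance. Foxp3 and Il2ra also stood at 9.97 and 11.00 in T4. Arrays of the same population correlated with a Pearson's r of 0.9901 to 0.996. Between populations r ran from 0.8264 to 0.9909, so the ranges overlapped. On DC replicate 2, however, all 10 granulocyte markers were at least 2-fold above DC replicate 1, with a median difference of 2.00 on the log2 scale. Their median level was 8.24 and 10.55 on the DC arrays, 12.60 and 12.83 on the GN arrays, 5.94 to 5.99 in MF and 6.01 to 6.65 on the lymphoid arrays. Monocyte and red pulp macrophage markers were higher on DC replicate 2 as well, with list medians of 8.77 and 10.63 (3 of 5 genes measured) and of 8.62 and 9.98. Platelet markers had medians of 6.93 and 7.91 on DC replicates 1 and 2, and B cell markers (4 of 5 measured) 8.75 and 8.88. The part of these markers in the DC values was not tested. For the members, each contrast with DC is given with and without its arrays. In sorted bulk samples, fewer cells of a type and less RNA per cell cannot be told apart. Whether both arrays of a population stem from different mice is not stated in the labels. The p-values thus reflect array-to-array spread alone, which may be technical.

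Slfn1, a short Schlafen gene, was low in NK and bright in every other population. Levels throughout are log2 intensities, with means ± SD over n = 2 arrays. The NK arrays read 7.05 and 7.14. The Tgd arrays read 10.03 and 10.51, the NKT arrays 10.48 and 10.85, and the DC arrays 9.69 and 10.95. In MF the values were 11.12 and 10.91, in T8 11.45 and 11.27, in Treg 11.54 and 11.45, and in T4 12.07 and 11.75. GN was highest at 12.62 and 12.68. No array of another population came near the NK values: the lowest of them, DC replicate 1, was more than 2 log2 units above. NK stood at 7.09 ± 0.06 against a mean of 11.21 over the other 8 populations, a difference of -4.12. Both NK arrays lay below the median of the array, and no detection calls were used. Whether such a level is above background is not known here, so no fold is given against it, nor against Slfn5 in NK or Slfn4 in lymphoid cells. By that difference Slfn1 lay furthest below 0 of all 19752 genes, as a measured value, which is the choice of the family restated. Populations count as separate neighbours here where the gap between their nearest arrays exceeds the larger of their 2 replicate differences. By this rule GN was separate from T4 and Tgd from NK. From T4 down through Treg, T8, MF, NKT, DC and Tgd no neighbouring pair was separate.

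Slfn5, a long Schlafen gene at one end of the cluster, had a deep NK low as well. Its NK arrays read 6.69 and 6.72, below the median of the array, which lay between 7.09 and 7.24 over the 18 arrays. The next values up were 8.91 and 9.35 in NKT and 9.36 and 8.85 in T8. T4 read 10.00 on both arrays, Treg 10.29 and 9.76, and Tgd 10.32 and 10.42. The myeloid arrays were above all lymphoid ones, with 11.40 and 11.18 in MF, 11.75 and 11.97 in DC, and 12.51 and 12.62 in GN. The NK mean minus the mean of the other populations was -3.84, a difference of measured values like that of Slfn1. Unlike Slfn1, Slfn5 formed steps: GN was separate from DC, DC from MF and MF from Tgd, as were T4 from NKT and T8 from NK. Tgd, Treg and T4 were not separate from their neighbours among them, nor was NKT from T8.

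Slfn2, the quiescence gene, and Slfn8, a long form, varied over narrower ranges and were lowest in NK too. Slfn2 read 9.78 and 9.52 in NK, against 10.36 or more on all other arrays, and 11.80 and 11.82 in GN. Its NK mean of 9.65 ± 0.18 minus the mean of the other 8 gave -1.23. Between DC at 10.95 ± 0.12 and T8 at 10.53 ± 0.24 every neighbouring pair overlapped. Slfn8 read 10.03 and 9.70 in NK and 11.62 and 11.66 in GN. Its NK mean of 9.86 ± 0.23 differed from the mean of the others by -0.98, and MF, the next lowest, stood at 10.41 ± 0.01. For both genes NK was separate from the population above it. In all, 4 of the 6 members had their lowest mean in NK, and 8.27% of all genes did. Because the NK level chose the family, that share is given beside the count and nothing is read from it.

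Slfn4 and Slfn9 did not follow the NK pattern. Slfn4, the myeloid gene, read between 6.34 and 6.82 on all 12 lymphoid arrays, below the median of each of those arrays. NK, at 6.66 and 6.76, overlapped the T cell arrays, so there was no NK low to see. The myeloid arrays read 9.91 and 11.51 in DC, 12.03 and 11.67 in MF and 13.20 and 13.34 in GN, with no overlap with the lymphoid arrays. Slfn9, a long form, read 8.67 and 8.38 in NK, above all T4, T8 and Treg arrays. Its lowest values were 7.91 and 7.79 in T8, followed by 8.23 and 8.13 in T4 and 8.27 and 8.19 in Treg. NKT read 8.46 and 8.48, Tgd 8.72 and 8.75, DC 8.70 and 9.19, MF 9.31 and 8.96, and GN 10.40 and 10.47. Slfn8 and Slfn9, whose promoter windows were the most alike, had their lowest means in NK and T8, respectively. The genes lowest in NK included 2 with the ISRE-like match (Slfn5 and Slfn8) and 2 without it (Slfn1 and Slfn2). Whether the windows or their motifs bear on these levels was not tested. The probes of each set were not given, and cross-hybridisation among close copies such as Slfn8 and Slfn9 was not tested.

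**Figure D2:**
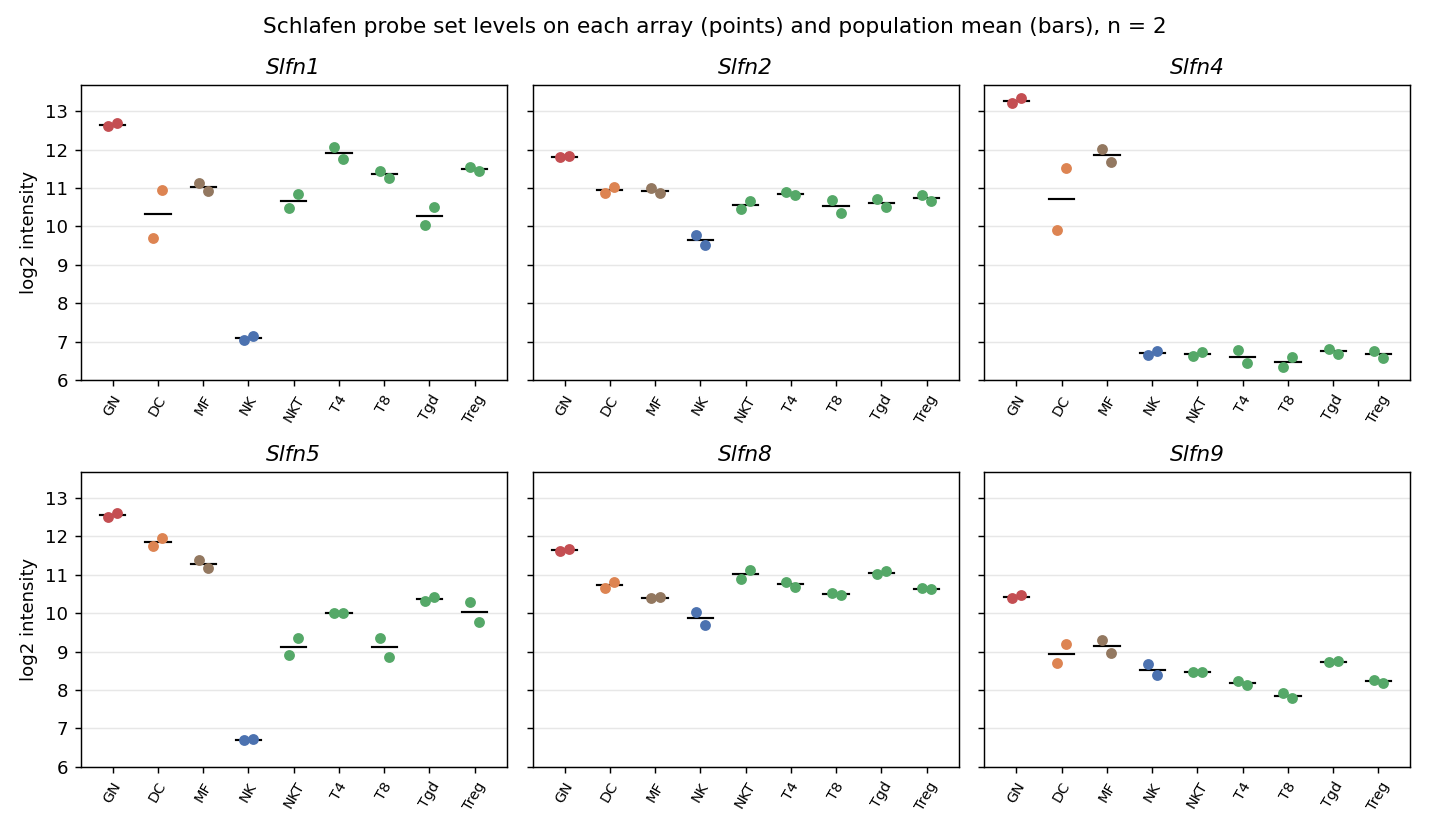
Log2 intensity of each Schlafen probe set on every array (points) with the population mean (bars, n = 2), over the 9 populations. NK lies at 7.09 for Slfn1 and 6.70 for Slfn5, far below the other populations, while Slfn4 is near 6.6 in all lymphoid populations and GN is the highest in all 6 panels.

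The NK1.1+ T cells, which share the NK1.1 gate with NK, did not share the low levels. Slfn1 stood 3.57 higher in NKT than in NK, Slfn5 2.42 higher, Slfn8 1.15 higher and Slfn2 0.91 higher. For Slfn4 and Slfn9 the NKT means differed from NK by -0.04 and -0.06. Against the mean of the 5 T cell populations, the NK difference was -4.05 for Slfn1 and -3.02 for Slfn5. These differences are descriptions.

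**Figure D3:**
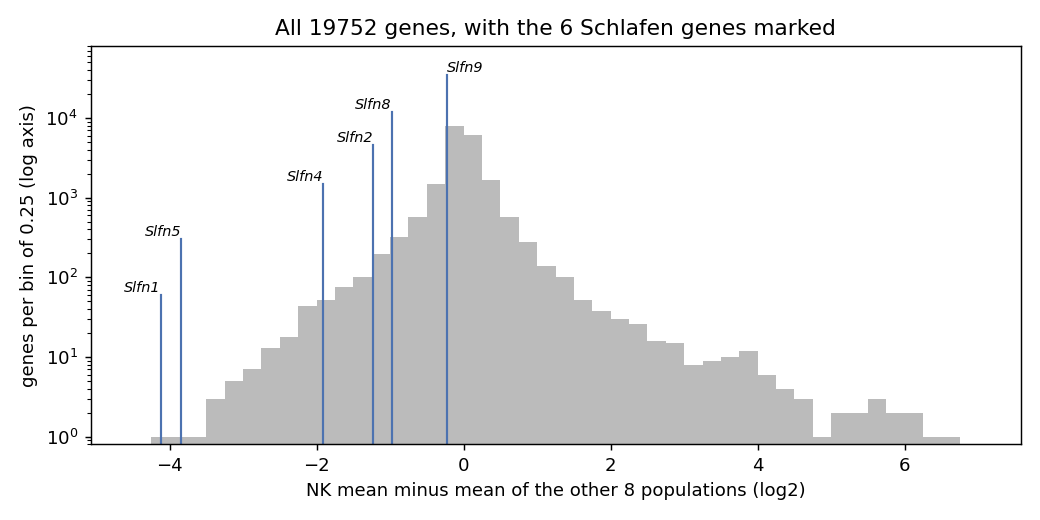
Histogram of the NK mean minus the mean of the other 8 populations for 19752 genes, with genes per bin on a log axis and the 6 Schlafen genes as lines whose height carries no value. Slfn1 at -4.12 and Slfn5 at -3.84 are the leftmost genes, and Slfn9 at -0.22 lies near the bulk.

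GN had the highest mean of all 9 populations for each of the 6 members, as it did for 38.4% of all genes. Over the 8 populations without NK, the moderated F test of limma was run on all genes with Benjamini-Hochberg adjustment. NK means were not compared, but the NK arrays entered the shared estimate of the spread. Calls needed an adjusted p below 0.05 together with means that spanned 2-fold or more. All 5 tested members passed, against 37.8% of all genes. Slfn4 ranged over 6.80 from T8 to GN (adjusted p = 1.06e-12), as a difference from values below the array median. Slfn5 ranged over 3.46 from T8 to GN (adjusted p = 4.18e-11) and Slfn9 over 2.58 between the same populations (adjusted p = 1.78e-09). The narrow members Slfn2 and Slfn8 ranged over 1.28 and 1.24 (adjusted p = 1.68e-06 and 4.41e-07). With quantile normalization of the arrays the Slfn2 range was 0.92, under 2-fold. Slfn1, which was not tested, ranged over 2.38 without NK. DC was at neither end of any of the 5 tested ranges, so leaving out a DC array could not change them.

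**Figure D4:**
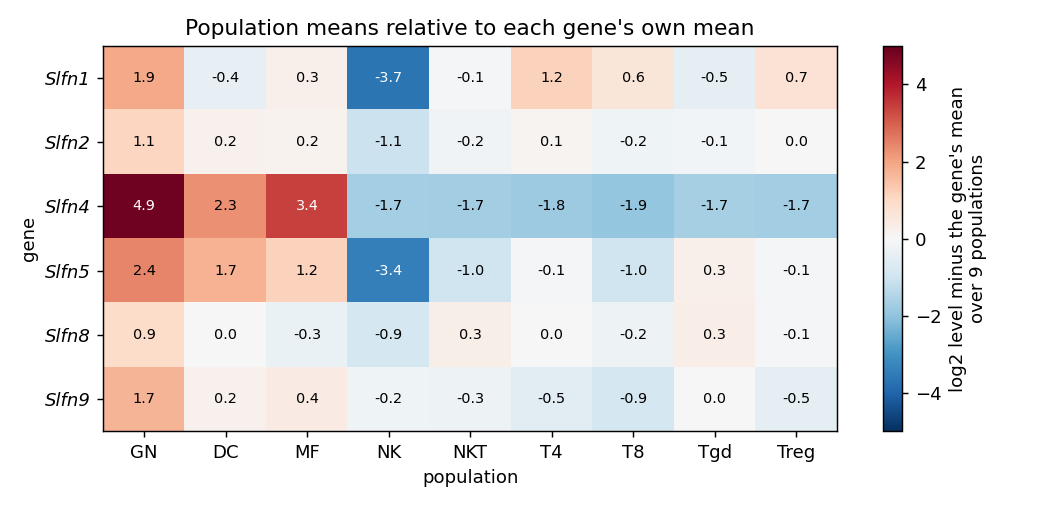
Heat map of each gene's population mean minus its mean over the 9 populations, in log2 units, with GN, DC and MF on the left. GN is the reddest cell in all 6 rows, NK the bluest for Slfn1, Slfn2, Slfn5 and Slfn8, and the Slfn4 row splits into 3 myeloid and 6 lymphoid populations.

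The mean of the 3 myeloid populations was called higher than that of the 5 T cell populations for 3 of 5 tested members. Of all genes 6.57% were called higher and 4.71% lower. The averages do not place each myeloid population above each T cell population: for Slfn9 the DC arrays (8.70 and 9.19) overlapped those of Tgd (8.72 and 8.75). Slfn4 was higher by 5.31 ± 0.16 (SE; limma, adjusted p = 6.95e-15), Slfn5 by 2.18 ± 0.09 (adjusted p = 8.61e-13) and Slfn9 by 1.21 ± 0.08 (adjusted p = 2.76e-10). Slfn2 was higher by 0.57 ± 0.07 (adjusted p = 7.19e-07), under 2-fold. For Slfn8 the difference was 0.14, with a 95% interval of 0.01 to 0.26 (adjusted p = 0.0576), and for Slfn1, as a description, 0.19. With only the arrays compared in the limma fit, which leaves NK out, Slfn8 had an adjusted p of 0.025, still under 2-fold. Without DC replicate 2 the Slfn4 difference was 5.04, and without DC replicate 1 it was 5.58. Slfn5 was at 2.14 and 2.21 in those settings, Slfn9 at 1.13 and 1.29, Slfn2 at 0.54 and 0.60, and Slfn8 at 0.11 and 0.16 (adjusted p = 0.170 and 0.0501 for Slfn8).

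Within the myeloid cells GN exceeded MF for 4 of 5 tested members, against 6.58% of all genes called higher and 14.1% called lower. Slfn4 was higher in GN by 1.42 ± 0.31 (limma, adjusted p = 0.000874), Slfn9 by 1.30 ± 0.15, Slfn5 by 1.28 ± 0.18 and Slfn8 by 1.24 ± 0.11 (adjusted p = 1.01e-06, 1.00e-05 and 3.63e-08). Slfn2 was higher by 0.88 ± 0.13 (adjusted p = 1.50e-05), short of 2-fold. For the 4 that passed, the differences lay between 1.24 and 1.42, a spread smaller than the SE of the Slfn4 value. The median of all genes in this contrast was 0.20.

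GN exceeded DC at 2-fold or more for Slfn4 and Slfn9, 2 of 5 tested members, against 5.77% of all genes called higher and 11.1% called lower. Slfn4 was higher by 2.56 ± 0.31 (limma, adjusted p = 2.13e-06) and Slfn9 by 1.49 ± 0.15 (adjusted p = 2.45e-07). Slfn8, Slfn2 and Slfn5 were higher by 0.90, 0.86 and 0.70 (adjusted p = 2.30e-06, 2.35e-05 and 0.00362), all under 2-fold. Slfn1, as a description, stood 2.33 higher in GN. The DC arrays differed for some members along with the granulocyte markers. From replicate 1 to replicate 2 the Slfn4 value differed by 1.61, Slfn1 by 1.26 and Slfn9 by 0.49, while Slfn2, Slfn5 and Slfn8 differed by 0.14 to 0.22. After the lymphoid median was subtracted on the linear scale, Slfn4 reached 8.76% of its GN level on DC replicate 1 and 28.8% on replicate 2. The 10 granulocyte markers reached 1.68% to 12.8% and 15.3% to 33.5% on the same arrays, and their part in the DC values was not tested. Slfn4 was 3.37 higher in GN without DC replicate 2 and 1.76 higher without replicate 1, and it passed in each case. Slfn9 was 1.73 and 1.24 higher in the same settings and also passed. Slfn8 was higher by 0.97 and 0.83, Slfn2 by 0.95 and 0.77 and Slfn5 by 0.81 and 0.59, with adjusted p-values of 0.0378 or less.

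DC and MF differed for Slfn4, 1 of 5 tested members, where 5.89% of all genes were called lower in DC and 4.97% higher. Slfn4 was lower in DC, at -1.14 ± 0.31 (limma, adjusted p = 0.00816). This call changed with the arrays and the model: the value was -1.94 without DC replicate 2 (adjusted p = 1.48e-07), -0.34 without DC replicate 1 (adjusted p = 0.219) and -0.96 without MF replicate 2 (adjusted p = 0.0809). It was also lost with the replicate number as a block (-0.89, adjusted p = 0.0204, under 2-fold) and with only the arrays compared (-1.14, adjusted p = 0.104). Slfn5 and Slfn8 were higher in DC by 0.58 and 0.33 (adjusted p = 0.0193 and 0.0281), under 2-fold. Without DC replicate 2 these were 0.47 and 0.26 (adjusted p = 0.139 and 0.194), and without DC replicate 1 they were 0.68 and 0.40 (adjusted p = 0.0292 and 0.0420). Slfn2 and Slfn9 differed by 0.02 and -0.19 (adjusted p = 0.943 and 0.415). Both turned sign between the DC arrays: without replicates 1 and 2, Slfn2 was at 0.11 and -0.07, and Slfn9 at 0.06 and -0.43.

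**Figure D5:**
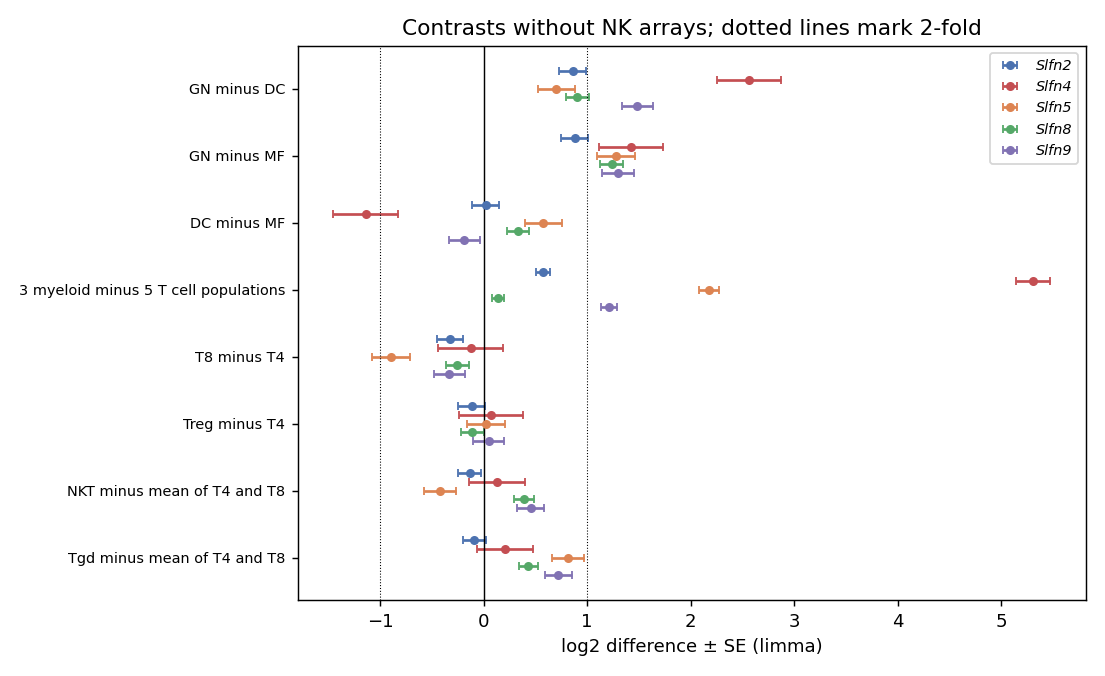
Log2 differences ± SE from limma for 5 Schlafen genes in 8 contrasts without NK arrays, with dotted lines at 2-fold. Slfn4 stands at 5.31 in the myeloid contrast, the GN minus MF values lie between 0.88 and 1.42, and contrasts among T cells stay within 2-fold.

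Among the 5 T cell populations Slfn5 differed, 1 of 5 tested members, against 6.33% of all genes. Its means ranged over 1.26 from T8 at 9.11 ± 0.36 to Tgd at 10.37 ± 0.07 (limma F test, adjusted p = 6.38e-05). Slfn9 and Slfn8 ranged over 0.89 and 0.56 between the same populations (adjusted p = 0.00333 and 0.00382), under 2-fold. Slfn2 ranged over 0.33 (adjusted p = 0.282) and Slfn4 over 0.27 (adjusted p = 0.96). Slfn1 ran in another order, from Tgd at 10.27 ± 0.34 to T4 at 11.91 ± 0.23, a range of 1.64 given as a description.

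Pairwise T cell contrasts gave no called member. Against the mean of T4 and T8, Tgd was higher for Slfn5 by 0.82 ± 0.16, for Slfn9 by 0.72 ± 0.13 and for Slfn8 by 0.43 ± 0.10 (limma, adjusted p = 0.00223, 0.00145 and 0.00706), each under 2-fold. In that contrast 0 of 5 members were called, while 1.47% of all genes were. At an unadjusted p under 0.05 stood 3 of 5 members and 21.4% of all genes. NKT, set against the same mean, was higher for Slfn9 by 0.45 and for Slfn8 by 0.39 (adjusted p = 0.0257 and 0.0101), and Slfn5 stood at -0.43 (adjusted p = 0.0800). Here 0 of 5 members and 2.88% of all genes were called, with 3 of 5 and 28.8% at an unadjusted p under 0.05. T8 stood below T4 for Slfn5, at -0.90 ± 0.18 (adjusted p = 0.00695), and at -1.15 without T8 replicate 2 (adjusted p = 0.00322), past 2-fold. In T8 against T4, 0 of 5 members and 0.962% of all genes were called, with 4 of 5 and 12.1% at an unadjusted p under 0.05. Treg against T4 gave calls for 0 of 5 members and 0.876% of all genes, with 0 of 5 and 12.6% at an unadjusted p under 0.05. The 95% intervals of this difference ran from -0.39 to 0.16 for Slfn2, from -0.36 to 0.41 for Slfn5 and, the widest, from -0.59 to 0.73 for Slfn4.

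Likeness among the members varied by pair. Over the 9 population means Slfn2 and Slfn5 had a Pearson's r of 0.93 and Slfn4 and Slfn9 one of 0.88. Slfn1 and Slfn2 had an r of 0.86, whereas Slfn1 and Slfn9 had 0.26, Slfn1 and Slfn4 0.34, and Slfn4 and Slfn8 0.40. These are descriptions over n = 9 means that share the same 18 arrays, and the NK point and the GN point weigh heavily in them.

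Other genes with a like pattern over the 9 means were named among 7051 genes with at least a 2-fold range. For Slfn1 they were Ifi27l2a, an interferon-induced gene (r = 0.96), Mitd1 (0.93) and Trim21, a cytosolic antibody receptor and ubiquitin ligase (0.91). All 3 had their lowest mean in NK (8.27% of all genes), which the choice by r with Slfn1 favours. For Slfn5 they were Parp12 (0.98), Dhx58, an RNA sensor of the RIG-I family (0.96), and Parp14 (0.96). Slfn2 was matched by the MHC class Ib gene H2-T24 (0.98), Vcpip1 (0.96) and Rtp4 (0.96). Slfn8 was matched by Ddx60 (0.96), the RNA-editing enzyme gene Adar (0.92) and Xpc (0.91), a DNA repair gene. Each of these had its lowest mean in NK as well. They were chosen by r with members lowest in NK, so nothing is read from it. Slfn4 was matched by Cd33 (r of 0.999), Tnfaip2 (0.998) and Hcar2 (0.998), but 428 genes reached an r of 0.9 with it, against 5 for Slfn1 and 4 for Slfn8. Slfn9 was matched by Arl11 (0.98), Ergic2 (0.97) and Piwil2 (0.97), a dim gene with means of 6.43 to 7.64. For Slfn9, too, many genes were alike, with 231 at an r of 0.9 or more.

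Interferon genes outside the family were set beside it from 2 lists. The lists were drawn up with results of these data known. Of 30 measured type I interferon-stimulated genes, 24 had their lowest mean in NK and 23 their highest in GN (8.27% and 38.4% of all genes). The median NK difference from the other populations was -1.53, where that of all genes was -0.02. Their median r was 0.83 with Slfn2 and with Slfn5, 0.78 with Slfn8, 0.62 with Slfn1, 0.61 with Slfn4 and 0.57 with Slfn9. Over 7704 genes with a 2-fold range, the medians for the 6 members lay between -0.21 and -0.08. No such range was asked of the list genes. Each r includes the NK mean, by which the family was chosen, and 24 of the 30 were lowest there. Nothing is therefore read from these r. Over the 8 populations without NK 26 of the 30 passed (37.8% of all genes), with Ifit2 and Ifit3 ranging over 5.05 and 4.90. In GN against MF 18 were higher and 3 lower (6.58% and 14.1% of all genes) with a list median of 1.15, led by Ifit2 at 5.05 ± 0.15 and, downward, Phf11d at -4.13 ± 0.11. In GN against DC 6 were higher and 3 lower (5.77% and 11.1% of all genes), with a list median of 0.54. Of 17 measured IFNg-inducible genes, 10 were lowest in NK and 10 highest in GN, beside the same 8.27% and 38.4% of all genes. All 17 passed over the 8 populations without NK, where 37.8% of all genes did. In GN against MF, however, 3 were higher and 4 lower (6.58% and 14.1% of all genes), with a list median of 0.71. Cd274 was higher by 1.45 ± 0.10, and the GTPase gene Gbp2b was lower at -4.47 ± 0.14.

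Quiescence and cell cycle genes were listed because of the known role of Slfn2. Of 12 T cell quiescence genes 1 was lowest in NK, and of 11 cell cycle genes 0 were, beside 8.27% of all genes. The quiescence list's median r with Slfn2 was -0.14, beside -0.17 over 7704 genes with a 2-fold range. In the myeloid contrast 3 of the 12 were lower than in T cells (4.71% of all genes), among them the transcription factor genes Bach2 and Foxo1, the latter at -2.68 ± 0.06. Of 11 cell cycle genes 8 were higher in the myeloid populations (6.57% of all genes), with Bub1 at 2.37 ± 0.19. Their median r was 0.44 with Slfn2, 0.88 with Slfn4 and -0.01 with Slfn8, beside -0.17, -0.20 and -0.18 over the 7704 genes. For the quiescence and cell cycle lists no range was asked of the list genes, and each r includes the NK mean.

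Genes on either side of the cluster varied less than the members. In the RefSeq order the cluster runs Slfn5, Slfn9, Slfn8, Slfn2, Slfn1, Slfn4, Slfn3 and Slfn14. Of the 3 protein-coding genes on either side, 5 were measured, and their means ranged over 0.21 (Unc45b) to 0.77 (Ap2b1) across the 9 populations. The members ranged over 1.78 (Slfn8) to 6.80 (Slfn4), which includes the NK values that chose the family. Fndc8, Unc45b and Rasl10b were dim, with highest means of 6.26, 6.87 and 7.28, beside array medians of 7.09 to 7.24. A narrow range says little for such genes. Over the 8 populations without NK the median range of all genes was 0.68. Nle1, a ribosome assembly gene before Slfn5, ranged over 0.64.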

How the data were processed

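Intensity values, deposited by the authors on a linear scale, came from 18 arrays in 1 series table. Per the submitters' processing notes RMA values were produced by Affymetrix Power Tools. Versions, and whether all arrays were normalized together, are not given in the sources used here. RMA compresses differences between dim values, and no detection calls were used. log2 was taken of each value.

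Of 24922 probe sets, 21425 had 1 symbol, 1399 several and 2098 were not listed. Symbols were updated by Entrez number (21347 found, RefSeq GRCm38.p6), and the brightest probe set stood for each gene. No probe set with several symbols listed a member. Tests used limma 3.58.1 in R 4.3.3 with a mean-variance trend, all arrays, 1 mean per population and no covariate, and were checked on simulated data. Residual and prior degrees of freedom were 9 and 7.69. Calls needed 2-fold and an adjusted p (Benjamini-Hochberg, 19752 genes) below 0.05. The number of arrays limits precision.

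Members, lists and contrasts were chosen with earlier results of these data known. Named genes were the members, the 3 genes per member with the highest r (range of at least 1 log2 unit, highest mean above the median, clone and small RNA names left out), the 3 coding neighbours on each side, and, on each list, up to 2 called genes in either direction. Promoter alignments used Biopython 1.88. A further motif search is not reported here. Alternatives covered scaling, filtering, offset, variance model, probe set choice, a replicate block, the arrays fitted and each array left out.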

Additional observations from a re-analysis of the deposited data

How the results depend on the processing

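Over 26 alternatives, 1294 of 1300 values of the 5 tested members in 10 comparisons kept their direction where called and their side of the threshold. The exceptions were Slfn2 over the 8 populations without NK with quantile normalization (0.92), Slfn5 in T8 minus T4 without T8 replicate 2 (-1.15), and 4 values of Slfn4 in DC minus MF. These were -0.89 with the replicate block, -1.14 with only the arrays compared (adjusted p = 0.104, limma), -0.34 without DC replicate 1 and -0.96 without MF replicate 2. The cause was not tested. Many of the alternatives could not change a member's difference or range. Among them were the probe set choice (each member had 1 probe set), the gene filter, the variance model and leaving out an array outside the comparison. The count of 1294 thus partly repeats the main values. With 50 added before log2, which shrinks differences of dim genes, 122 genes in place of 190 were called in T8 minus T4, and 186 in place of 290 in Tgd against the mean of T4 and T8. In the latter, 79.0% of calls were higher in Tgd, and 68.7% after centring each array on its median. The replicate numbers of the titles were not used as pairs in the main fit. Deviations of same-numbered arrays correlated between -0.20 and 0.47, over 0.1 for 11 of 36 pairs of populations and below 0 for 12. The value was 0.47 for NK and T8, and 0.34 both for T4 and T8 and for T8 and Treg. Whether same-numbered arrays share a source was not tested. With the replicate number as a block 7501 genes in place of 7464 passed over the 8 populations without NK, and 191 in T8 minus T4. Leaving out each array gave 7453 to 7565 genes over the 8 populations and 179 to 219 in T8 minus T4. Slfn1 in NK stood between -4.12 and -4.09 under all 3 scalings.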

Other observations

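Other Schlafen genes with a probe set of their own were Slfn3, Slfn10-ps, Slfn5os and Slfnl1, which are not among the 6 members. Slfn3, which neighbours Slfn4, was highest in MF at 9.71 ± 0.09 and GN at 9.65 ± 0.04, with overlapping arrays, and next in DC at 8.36 ± 0.31. Its NK arrays read 7.71 and 6.99, and overlapped those of NKT at 7.36 and 7.55. The pseudogene Slfn10-ps ranged over 1.02, from 8.66 in DC to 9.68 in GN, and its NK mean of 9.40 ± 0.35 was the second highest. Slfn5os, a transcript antisense to Slfn5, ranged over 0.77 with its lowest mean in NK at 6.30 ± 0.11, and Slfnl1, which lies outside the cluster, over 0.36. These values are descriptions over the same 18 arrays, with n = 2 per population.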
